A study of Mus musculus with 12 samples.

Results

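Mitochondrial ribosomal protein (MRP) genes encode the protein part of the ribosome inside mitochondria. They were taken as the rows of the deposited tables whose gene name is Mrps or Mrpl followed by a number and at most 1 letter and whose transcript type is protein_coding. This gave 66 members, 26 named for the small subunit (Mrps) and 40 for the large subunit (Mrpl), among 17811 genes in the table of dim cells, 17521 in the table of bright cells and 15768 listed in both. All 66 were in both tables and all 66 passed the filter on low counts in each comparison. A further 11 genes with matching names carried another transcript type in the tables and are not members: Mrpl9, Mrpl13, Mrpl20, Mrpl23, Mrpl33, Mrpl42, Mrpl51, Mrpl54, Mrps12, Mrps14 and Mrps35.

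The mitochondrial ribosome translates the few mRNAs that the mitochondrial genome still encodes, all of them for core subunits of the oxidative phosphorylation complexes. Its ribosomal RNAs come from mitochondrial DNA, whereas every one of its proteins is encoded in the nucleus, made in the cytosol and imported. The small subunit decodes the mRNA and the large subunit forms the peptide bond next to the inner membrane. In the kidney, proximal tubule cells are known for their dense mitochondria, and endothelial cells for drawing much of their ATP from glycolysis.

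Cells labelled as glomerular endothelial cells (GEC) were sorted by flow cytometry from digested mouse glomeruli by their tdTomato fluorescence, which a Cre recombinase under the endothelial Tek promoter switches on from the ROSA26 locus. Wild type (WT) mice were compared with Alport syndrome (AS) mice, labelled Col4a5 -/- and bred from the B6.Cg-Col4a5tm1Yseg/J strain. AS mice lack the type IV collagen chain that Col4a5 encodes, a chain of the glomerular basement membrane. All animals were C57BL/6, 4 months old and carried the Tek-Cre and tdTomato alleles. Each of 3 WT and 3 AS mice gave 1 library of dim and 1 of bright cells, so the 12 libraries form 4 groups of 3, and bright and dim libraries of the same genotype are paired by mouse. Poly-A selected RNA was sequenced, and each library held 11440169 to 15074909 counts on genes.

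The promoters of 4 members are shown here as examples from among the members that passed a test, chosen with their values known: Mrps21 and Mrps18a fell in dim AS cells, and Mrpl17 and Mrps27 were higher in bright than in dim AS cells. They are not the 4 lowest adjusted p. Each runs from 250 bases before to 50 bases after the transcription start given by RefSeq (build GRCm38.p6), 5′ to 3′ on the strand of the gene. Capitals mark the cores of 3 motifs of factors known to regulate nuclear genes for mitochondrial proteins: GCGCATGC for NRF1, CCGGAAGT for the ETS factor GABP and AAGATGGC for YY1, each searched on both strands. The windows lie at chr3:95871465-95871764 (Mrps21, minus strand), chr17:46110754-46111053 (Mrps18a, plus strand), chr7:105811038-105811337 (Mrpl17, minus strand) and chr13:99344536-99344835 (Mrps27, plus strand).
Mrps21: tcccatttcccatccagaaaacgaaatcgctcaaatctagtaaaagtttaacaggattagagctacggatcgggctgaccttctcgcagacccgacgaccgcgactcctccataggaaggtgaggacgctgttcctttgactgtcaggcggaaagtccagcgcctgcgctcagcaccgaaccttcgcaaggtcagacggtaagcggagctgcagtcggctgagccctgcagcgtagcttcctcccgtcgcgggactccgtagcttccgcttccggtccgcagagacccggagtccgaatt
Mrps18a: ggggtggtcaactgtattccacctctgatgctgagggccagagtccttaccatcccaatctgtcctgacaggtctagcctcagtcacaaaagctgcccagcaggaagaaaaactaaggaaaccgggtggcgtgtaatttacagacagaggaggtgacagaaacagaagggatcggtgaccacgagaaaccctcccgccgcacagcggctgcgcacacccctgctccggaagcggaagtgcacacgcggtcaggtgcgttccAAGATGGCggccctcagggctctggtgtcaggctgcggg
Mrpl17: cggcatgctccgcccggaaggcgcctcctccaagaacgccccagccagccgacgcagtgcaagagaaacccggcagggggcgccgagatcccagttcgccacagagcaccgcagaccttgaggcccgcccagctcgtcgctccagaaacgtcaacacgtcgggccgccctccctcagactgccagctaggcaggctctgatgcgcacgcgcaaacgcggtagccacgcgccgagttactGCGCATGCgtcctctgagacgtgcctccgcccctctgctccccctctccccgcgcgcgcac
Mrps27: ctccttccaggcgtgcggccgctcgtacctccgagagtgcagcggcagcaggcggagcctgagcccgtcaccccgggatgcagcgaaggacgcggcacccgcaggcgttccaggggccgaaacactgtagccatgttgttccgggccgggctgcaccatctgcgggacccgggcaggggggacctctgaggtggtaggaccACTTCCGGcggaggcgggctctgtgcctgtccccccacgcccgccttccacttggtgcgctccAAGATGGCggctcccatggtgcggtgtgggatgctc
The Mrps21 window held none of the 3 cores. The YY1 core began at base 12 after the start of Mrps18a, the NRF1 core 11 bases before that of Mrpl17, and Mrps27 held the reverse complement of the GABP core 49 bases before the start and the YY1 core at base 15 after it. Of the 66 members, 60 had a promoter in the RefSeq table, which lists 27025 symbols. The NRF1 core was in 6 of them (10.0%, against 3.05% of all promoters), the GABP core in 10 (16.7%, against 4.31%) and the YY1 core in 10 (16.7%, against 3.19%). At least 1 core was in 24 (40.0%, against 9.91%), and Mrps27 and Mrpl32 held a pair of different cores. These matches describe the letters in the windows and do not show binding.

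Facts of the libraries that touch the results are given first. Col4a5, the gene targeted in AS mice, had 67.6, 37.1 and 73.9 CPM (counts per M counts of the library, after TMM scaling) in the WT dim libraries and 3.60, 1.99 and 1.36 in the AS dim libraries, a log2 fold change of -4.69 ± 0.45 (SE; edgeR adjusted p = 0.0098). In bright cells the gene was low in both genotypes and the groups overlapped, with 10.0, 4.92 and 5.13 CPM in WT and 3.13, 6.79 and 4.00 in AS (log2 fold change -0.60 ± 0.47, edgeR adjusted p = 0.49). The gene thus separated the genotype labels in dim cells only. Endothelial, podocyte and tubule marker sums, given below, were also lower in the AS dim libraries, and their part in the Col4a5 difference was not tested. The summed level of 14 endothelial markers was 11100 to 17000 CPM in WT bright and 16600 to 19400 in AS bright libraries, but 741 to 1390 in WT dim and 232 to 326 in AS dim libraries. Leukocyte markers showed the opposite split, with 7780 to 13400 CPM for 12 genes in WT dim, 15200 to 17700 in AS dim, and 29.9 to 86.9 in WT bright and 99.0 to 133 in AS bright for the 8 of them listed there. The libraries labelled dim GEC thus held more leukocyte than endothelial marker RNA, which goes against that label, and they are called dim cells, by their gate, from here on. The 12 proximal tubule markers summed to 6360, 1430 and 1400 CPM in WT dim, 32.7, 380 and 19.6 in AS dim, 2560, 425 and 595 in WT bright and 74.0, 486 and 53.0 in AS bright. Podocyte markers (8 genes) summed to 636, 1020 and 1250 CPM in WT dim and 574, 560 and 548 in AS dim libraries, and to 984 to 1220 in WT bright and 1380 to 1540 in AS bright libraries. Mesangial and mural markers (8 genes, 7 of them in the dim table) summed to 208, 146 and 118 CPM in WT dim and 106, 60.5 and 77.7 in AS dim libraries, and to 410 to 894 in WT bright and 453 to 821 in AS bright libraries. In these bulk samples, fewer cells of a type and less RNA per cell cannot be told apart.

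MRP transcripts made up a small share of the RNA and spanned a wide range of levels. Divided by the length of the merged exons in the mouse annotation (Gencode M21), the median member had a level of 6.74 CPM per kilobase over the 12 libraries, and 64 of the 66 members were above 1 CPM in every library. Mrps23, a small-subunit protein particular to mitochondria, had the highest level, 89.0 CPM per kilobase, followed by Mrpl2 with 82.6, which lies near the peptidyl transferase centre, and Mrps21 with 71.99, the counterpart of bacterial S21. The means in WT dim cells were 114 ± 9.88 (SD, n = 3) for Mrps23, 100 ± 40.2 for Mrpl2 and 126 ± 21.9 for Mrps21. These 3 members differed from each other by less than the spread over libraries, and together they gave 27.6% of the summed level per kilobase.
The lowest levels were those of Mrpl16 (0.981 CPM per kilobase), Mrps34 (0.452) and Mrps25 (0.429), so that the highest was 208 times the lowest. Mrps34, a gene in which mutations cause a mitochondrial translation defect, had only 7 to 22 counts in a library. Of its exon length, 37.0% overlaps Nme3 on the same strand and 63.4% overlaps Mapk8ip3 on the opposite strand, and 69.8% of Mrps25 overlaps Nr2c2 on the opposite strand. Which strand column of the counts the authors used is not given in the sources used here, so the levels of overlapping members are uncertain: 28 of the 66 share exon bases with another gene, 5 on the same strand and 25 on the opposite one.

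**Figure D1:**
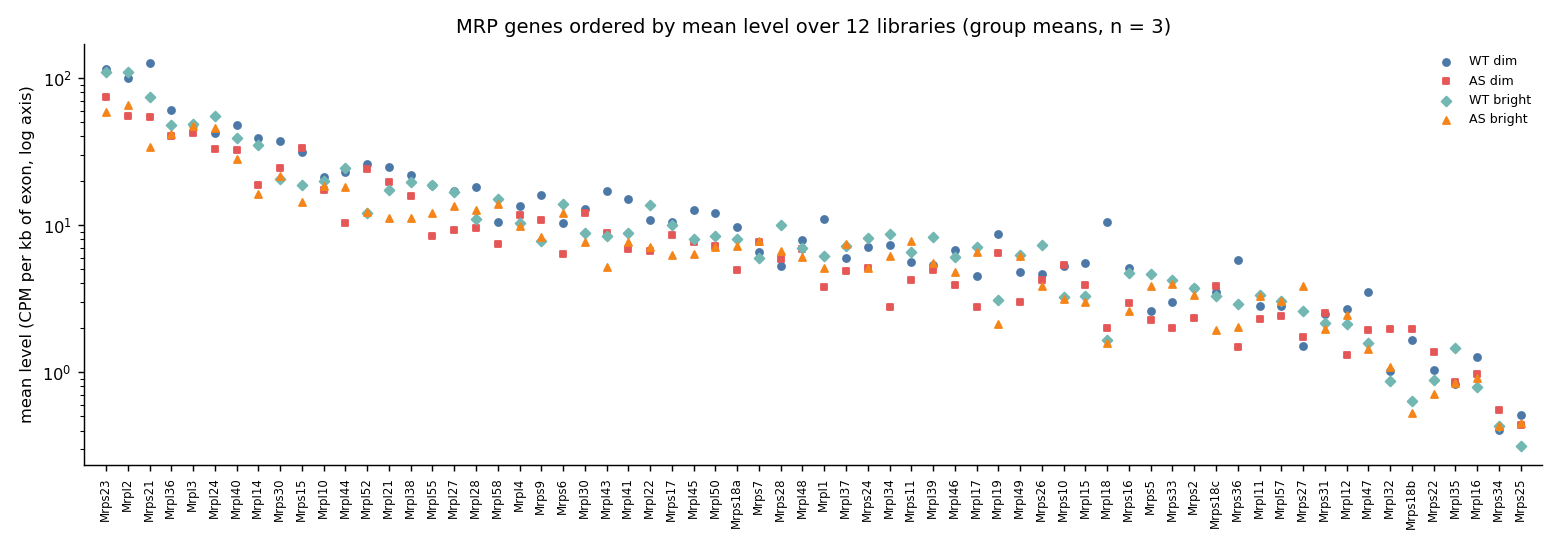
Level of each of the 66 MRP genes in CPM per kilobase of merged exons (log axis), ordered by the mean over the 12 libraries; points are the means of the 4 groups (n = 3). The levels run from 0.429 for Mrps25 to 89.0 for Mrps23, and the 4 group means of a gene lie close together compared with that range.

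Added up over the 66 members, the MRP level was 3029, 2164 and 2453 CPM in WT dim, 1752, 1876 and 1819 in AS dim, 2679, 1557 and 2328 in WT bright and 1858, 1436 and 2032 in AS bright libraries. All 3 WT dim libraries were above all 3 AS dim libraries, whereas the bright groups overlapped. Replicate 1 of WT was the highest of its group in both subpopulations and came from 1 mouse. It held the highest level of the 6 dim libraries in 35 of the 66 members (its dim library) and of the 6 bright libraries in 36 (its bright library), and it also had the highest proximal tubule marker level of each. The part of tubule RNA in the MRP levels was not tested beyond the fits with that marker level as a covariate given with each comparison.

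**Figure D2:**
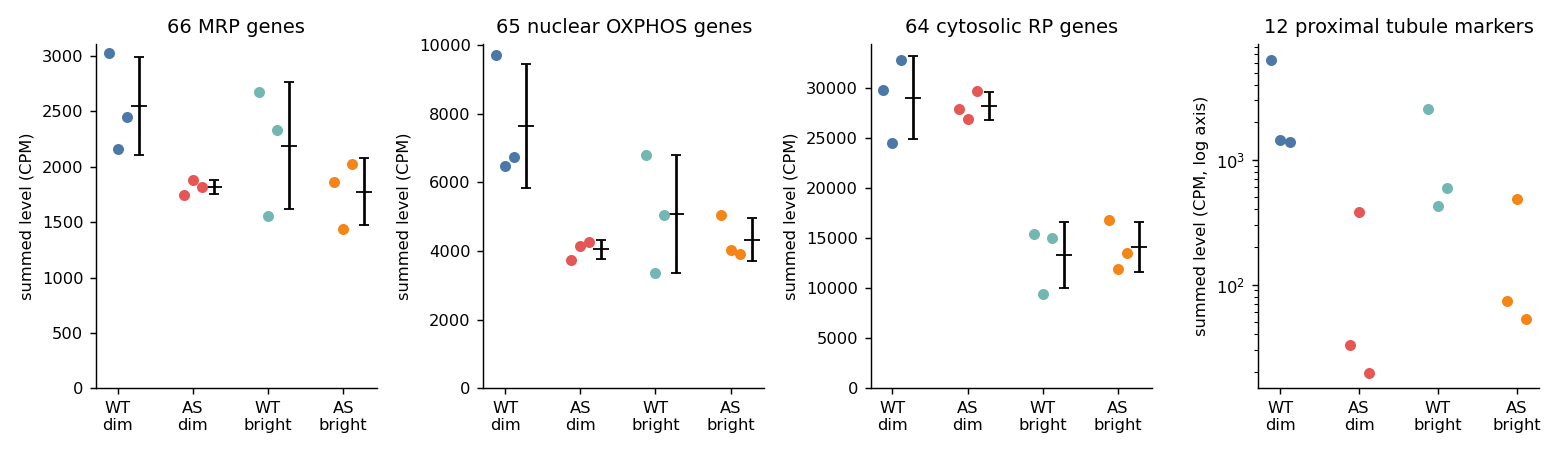
Summed CPM in each of the 12 libraries for the 66 MRP genes, 65 nuclear oxidative phosphorylation genes, 64 cytosolic ribosomal protein genes and 12 proximal tubule markers (log axis for the last); each point is 1 library. The MRP sum runs from 1436 to 3029 CPM, and replicate 1 of WT is highest in both dim and bright cells for MRP, oxidative phosphorylation and tubule genes.

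The comparison of AS with WT in dim cells asks how the loss of Col4a5 goes with expression in that subpopulation. MRP genes were mostly lower in AS dim cells, but few passed the test one by one. With edgeR's quasi-likelihood test and Benjamini-Hochberg adjustment over all 14637 genes, 3 of the 66 fell (4.55%) and 0 rose, beside 6.42% of all genes tested that fell and 2.21% that rose, so the share that fell was no larger than the background. At an unadjusted p under 0.05, 18 were lower and 1 was higher, against 15.9% and 10.3% of all genes. In 16 members every AS library lay below every WT library, and in 1 above, against 15.5% and 16.1% of all genes. A log2 fold change below 0 was found in 55 of the 66 (83.3%), against 51.1% of all genes, and the median was -0.52 against -0.02. The median was -0.31 for the 26 Mrps and -0.61 for the 40 Mrpl genes, 11 members were at -1 or below, and none was at 1 or above. Endothelial, proximal tubule, podocyte and mesangial marker sums were lower and the leukocyte sum higher in all 3 AS dim libraries than in any WT dim library, and apart from the covariate fits below their part in these values was not tested.

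Mrps21 (chr3:95862634-95871519; gene positions are those of Gencode M21 on GRCm38) gave the lowest adjusted p. It had 82.7, 85.0 and 112 CPM in the WT dim and 36.6, 45.4 and 37.4 in the AS dim libraries, so the lowest WT library held well above the highest AS library. Its level fell 2.39-fold (log2 fold change -1.26 ± 0.22, edgeR adjusted p = 0.022).
Mrpl1 (chr5:96209493-96266727), which forms the mobile stalk beside the site where spent tRNA leaves, had 52.1, 27.7 and 62.5 CPM in WT dim and 11.1, 18.2 and 19.8 in AS dim libraries. The groups did not overlap, and it fell 2.98-fold (-1.57 ± 0.38, edgeR adjusted p = 0.042).
Mrps18a (chr17:46110986-46128910), one of 3 paralogs related to bacterial S18 and, despite its name, a protein of the large subunit, had 37.2, 38.7 and 30.9 CPM in WT dim and 17.3, 18.8 and 18.8 in AS dim libraries. It fell 1.99-fold (-0.99 ± 0.25, edgeR adjusted p = 0.047). No other annotated gene overlaps the exons of these 3 members. The other paralogs did not pass: Mrps18b had 4.30, 3.38 and 2.70 CPM in WT dim and 5.37, 2.74 and 4.15 in AS dim libraries, and Mrps18c had 5.26, 2.54 and 3.46 against 4.81, 4.06 and 3.51, with overlapping groups for both.

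Of the members with a textbook role or disease link, Mrps36 had the largest difference in dim cells. This protein is now known as a component of the 2-oxoglutarate dehydrogenase complex of the citric acid cycle. It had 11.5, 6.00 and 4.64 CPM in WT dim and 2.19, 2.07 and 1.36 in AS dim libraries, with no overlap, and did not pass (-2.0 ± 0.55, edgeR adjusted p = 0.062). The largest log2 fold change of all members, -2.45, was that of Mrpl18, named here after its values were seen, with 13.2, 29.7 and 1.26 CPM in the WT dim libraries and overlapping groups. Mrps23 also lay just outside the threshold, with 190, 161 and 184 CPM in WT and 132, 108 and 105 in AS dim libraries (-0.67 ± 0.18, edgeR adjusted p = 0.06).
In the stalk that recruits translation factors, Mrpl12, which also binds the mitochondrial RNA polymerase, had 5.79, 2.45 and 4.05 CPM in WT dim against 2.12, 2.49 and 1.44 in AS dim libraries, and its partners Mrpl10 and Mrpl11 had log2 fold changes of -0.32 ± 0.25 and -0.33 ± 0.42. None of these 3 passed, with edgeR adjusted p of 0.24, 0.47 and 0.67. Mrpl44, a member of the ribonuclease III family, had 57.3, 37.0 and 18.6 CPM against 20.6, 15.8 and 14.8, where the lowest WT library lay below the highest AS library (-1.18 ± 0.42, edgeR adjusted p = 0.12).
Mrpl40, which lies in the human region lost in the 22q11 deletion syndrome, had 99.3, 83.1 and 70.1 CPM in WT dim and 57.3, 65.3 and 48.4 in AS dim libraries, with no overlap (-0.60 ± 0.23, edgeR adjusted p = 0.14). Genes mutated in inherited oxidative phosphorylation deficiency were spread on both sides of 0: Mrps16 at -0.84 ± 0.40, Mrps2 at -0.71 ± 0.54, Mrpl3 at -0.22 ± 0.25, Mrps7 at 0.21 ± 0.42, Mrps22 at 0.35 ± 0.68 and Mrps34 at 0.39 ± 0.55. Their edgeR adjusted p lay between 0.22 and 0.80. Mrps5, which lines the mRNA entry, and Mrpl58, a peptidyl-tRNA hydrolase built into the large subunit, were at -0.26 ± 0.46 and -0.53 ± 0.30.

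**Figure D3:**
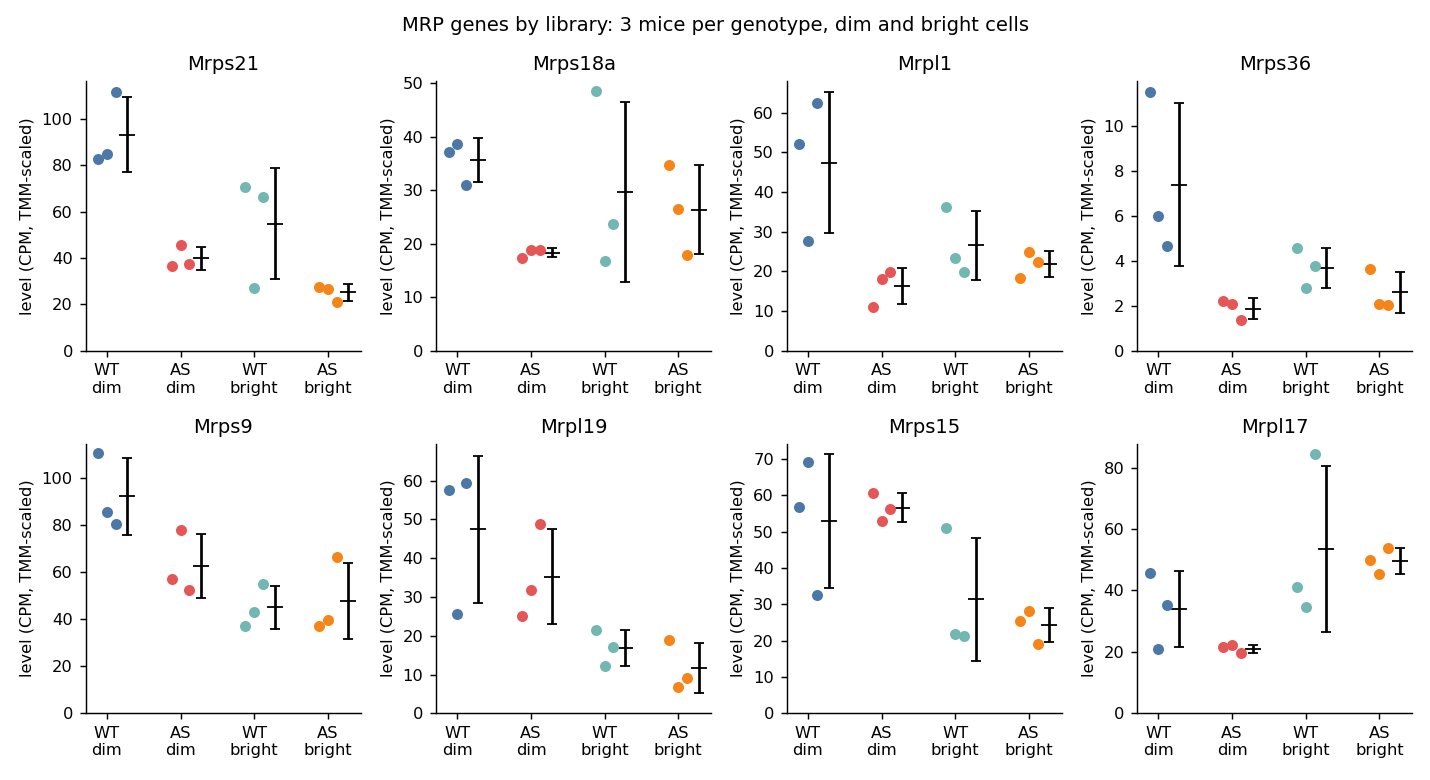
CPM of Mrps21, Mrps18a, Mrpl1, Mrps36, Mrps9, Mrpl19, Mrps15 and Mrpl17 in the 12 libraries; points are libraries, and bars are the mean ± SD of each group (n = 3). Mrps21, Mrps18a and Mrpl1 separate WT from AS in dim cells, whereas Mrps15 and Mrpl17 separate dim from bright cells within AS, in opposite directions.

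These calls moved with the setting. DESeq2 called 7 members, all lower, but it also called 1551 of 14565 genes lower, against 939 of 14637 with edgeR. Of the 3, Mrps18a was lost with library sizes alone, and Mrps21 alone passed without a filter on low counts and with the edgeR version 3 fit. Over all genes, library sizes alone called 1241, the fit without a filter 964 of 17811 and the version 3 fit 582, against 1263. With the proximal tubule marker level as a covariate 0 members passed and the median was -0.26, and with the leukocyte marker level 0 passed and the median was 0.69, but these fits called only 1 and 0 of all 14637 genes. The count was 1 without WT dim replicate 1, 6 without WT dim replicate 3, 0 without AS dim replicate 1, 1 without AS dim replicate 2 and 0 without AS dim replicate 3. The calls over all genes moved with them: 786 without WT dim replicate 1, 1825 without WT dim replicate 3, 0 without AS dim replicate 1, 484 without AS dim replicate 2 and 1 without AS dim replicate 3, against 1263 with all libraries.

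In bright cells, AS and WT were compared in the same way, and no MRP gene passed. The edgeR count was 0 lower and 0 higher of 66, beside 0.264% and 0.188% of 14396 genes. At an unadjusted p under 0.05, 7 members were lower and 0 higher, against 11.9% and 9.98% of all genes. DESeq2 called 4 members, all lower, and edgeR's likelihood ratio test 1, where they called 666 of 14348 and 510 of 14396 genes lower, against 38 with the quasi-likelihood test. The groups did not overlap in 4 members, all lower, and in 0 with AS higher, against 9.08% and 15.6% of all genes. A log2 fold change below 0 was found in 56 of the 66 (84.8%), against 52.3% of all genes, with a median of -0.29 against -0.03 and 5 members at -1 or below. Leaving out WT bright replicate 2, the library with the lowest MRP sum of its group, gave 2 calls, and 281 instead of 65 over all genes. With the proximal tubule marker level as a covariate 0 members and 0 of 14396 genes passed, and the median of the members was -0.21. With the leukocyte marker level, whose sum was higher in every AS bright than in any WT bright library, 0 members passed and their median was -0.63, while 520 genes were lower and 104 higher.

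The 3 members with the lowest p were Mrps26, Mrps21 and Mrpl22. Mrps26, a small-subunit protein particular to mitochondria, had 33.7, 23.2 and 38.5 CPM in WT bright and 16.03, 14.3 and 20.2 in AS bright libraries. The groups did not overlap (-1.0 ± 0.29, edgeR adjusted p = 0.10).
Mrps21 had 70.6, 27.2 and 66.3 CPM in WT bright and 27.5, 26.8 and 20.97 in AS bright libraries, and overlapped through WT replicate 2 (-1.21 ± 0.36, edgeR adjusted p = 0.11). Mrpl22, which lines the tunnel through which the nascent chain leaves, had 16.7, 11.3 and 12.2 CPM in WT and 7.87, 5.94 and 6.99 in AS bright libraries, with no overlap (-1.03 ± 0.34, edgeR adjusted p = 0.13). Of the members that fell in dim cells, Mrpl1 and Mrps18a had log2 fold changes of -0.36 ± 0.31 and -0.26 ± 0.42 in bright cells, with overlapping groups.
Among the members with a known role, Mrps16 had 12.3, 6.91 and 21.4 CPM in WT and 5.61, 7.64 and 9.03 in AS bright libraries (-0.95 ± 0.44, edgeR adjusted p = 0.24). Mrps5 was lower without overlap, with 28.2, 28.0 and 35.8 CPM against 26.8, 21.5 and 27.3, but by a small amount (-0.36 ± 0.25, edgeR adjusted p = 0.43). Mrps7 and Mrpl12 lay above 0, at 0.30 ± 0.31 and 0.12 ± 0.48, and neither passed.

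**Figure D4:**
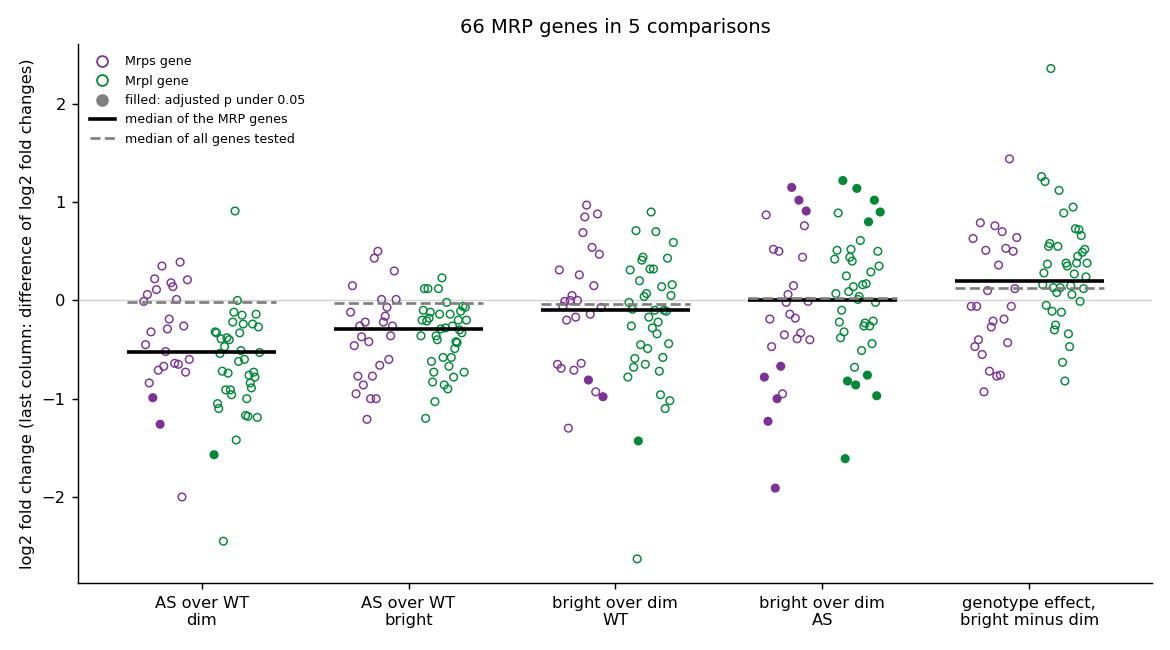
Log2 fold change (edgeR) of each of the 66 MRP genes in the 5 comparisons, Mrps and Mrpl in different colours, with filled points for an adjusted p under 0.05 and lines for the medians. Most points lie below 0 in both comparisons of AS with WT, with medians of -0.52 in dim and -0.29 in bright cells, while those of bright with dim cells are spread around medians of -0.10 and 0.00.

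Whether the genotype difference itself differed between bright and dim cells was tested as an interaction over all 12 libraries and 15084 genes. With edgeR 0 members passed, lower or higher, beside 0.815% and 2.96% of all genes, and at an unadjusted p under 0.05 there were 0 lower and 2 higher, against 6.95% and 11.5%. DESeq2 and edgeR's likelihood ratio test also called 0, and leaving out WT dim replicate 3 gave 1. With the tubule marker level as a covariate 0 members passed and the median was 0.14. The median was 0.20 for members and 0.13 for all genes, while with library sizes alone the medians were 0.03 and -0.03, so the members exceeded all genes by a similar amount on either scale. The median of the members was -0.05 without WT dim replicate 1. The lowest p belonged to Mrpl1 (1.26 ± 0.49, edgeR adjusted p = 0.19), Mrpl28 (1.12 ± 0.50, 0.25) and Mrps36 (1.44 ± 0.68, 0.28). Mrpl28, a large-subunit protein with a bacterial counterpart, had 32.7, 13.4 and 28.5 CPM in WT dim, 11.8, 15.9 and 11.7 in AS dim, 20.6, 12.1 and 12.8 in WT bright and 18.4, 15.1 and 18.7 in AS bright libraries.

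Bright cells were then compared with dim cells within each genotype. The leukocyte and endothelial marker levels above separate these 2 gates, so the contrast is also one between mixtures of different cell types. In WT mice, 3 of the 66 members were lower in bright cells and 0 were higher by edgeR's quasi-likelihood test, against 11.5% and 13.8% of 14247 genes, so MRP genes passed less often than the background, a difference that was not tested. The median was -0.10, against -0.04 for all genes.
Mrps9 (chr1:42851233-42905683), the counterpart of bacterial S9 in the head of the small subunit, had 111, 85.5 and 80.5 CPM in WT dim and 37.1, 43.1 and 55.0 in WT bright libraries, with no overlap (-0.98 ± 0.27, edgeR adjusted p = 0.025). Mrps30, another protein of the large subunit despite its name, had 304, 200 and 235 CPM in WT dim and 146, 149 and 113 in WT bright libraries (-0.81 ± 0.25, edgeR adjusted p = 0.04). Mrpl19 (chr6:81957851-81965958), at the interface of the subunits, had 57.5, 25.5 and 59.3 CPM in WT dim and 21.4, 12.1 and 17.0 in WT bright libraries (-1.43 ± 0.41, edgeR adjusted p = 0.032). Every bright library of WT lay below every dim library in these 3 genes, and 36.0% of the exon length of Mrpl19 overlaps Gcfc2 on the opposite strand.
Mrps5 lay in the other direction, with 19.6, 16.8 and 15.3 CPM in dim and 28.2, 28.0 and 35.8 in bright libraries (0.88 ± 0.31, edgeR adjusted p = 0.069). DESeq2 called 6 members, 5 lower and 1 higher, beside 2024 and 2123 of 14186 genes, and with the mouse as a block Mrpl18 was added to the 3. Mrps30 was lost with library sizes alone. The count was 0 without WT dim replicate 1, 0 without WT bright replicate 2, 1 without WT bright replicate 1, 1 without WT bright replicate 3 and 0 without both libraries of mouse 1. Over all genes those fits called 3435, 2605, 3261, 2534 and 3131, against 3604 with all libraries. The count was also 0 with the proximal tubule marker level as a covariate, where 1656 of 14247 genes were still lower and 1703 higher.

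In AS mice, 10 members were lower and 8 were higher in bright than in dim cells by the same test. Together they were 27.3% of the members, against 26.5% lower and 28.6% higher of 14052 genes, which is 55.1% of all genes. The median of the members was 0.00, against 0.02 for all genes. The genes lower in bright cells were 5 of the small subunit (Mrps10, Mrps15, Mrps18b, Mrps18c and Mrps21) and 5 of the large one (Mrpl19, Mrpl21, Mrpl32, Mrpl43 and Mrpl52), and those higher were Mrps6, Mrps27, Mrps33, Mrpl17, Mrpl34, Mrpl44, Mrpl49 and Mrpl58.

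Mrpl17 (chr7:105803206-105811099), the counterpart of bacterial L17 near the exit of the tunnel, gave the lowest adjusted p. It had 21.6, 22.1 and 19.6 CPM in AS dim and 49.8, 45.4 and 53.7 in AS bright libraries. The groups were far apart (1.22 ± 0.19, edgeR adjusted p = 0.00038).
Mrps27 (chr13:99344786-99415562), a pentatricopeptide repeat protein of the small subunit, had 3.18, 4.89 and 2.79 CPM in AS dim and 7.87, 6.98 and 9.39 in AS bright libraries (1.15 ± 0.34, edgeR adjusted p = 0.016). Of its exon length, 24.2% overlaps another gene on the opposite strand. Mrpl58 had 20.8, 23.0 and 29.9 CPM in AS dim and 60.0, 40.0 and 38.2 in AS bright libraries (0.90 ± 0.25, edgeR adjusted p = 0.011). Mrpl44 was higher as well, with 20.6, 15.8 and 14.8 CPM in dim and 22.4, 27.4 and 40.3 in bright libraries (0.80 ± 0.27, edgeR adjusted p = 0.03).

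Mrps15 (chr4:126046925-126055532), the counterpart of bacterial S15 in the platform of the small subunit, was the clearest in the other direction, with 60.7, 52.8 and 56.3 CPM in AS dim and 25.5, 28.1 and 19.2 in AS bright libraries (-1.23 ± 0.21, edgeR adjusted p = 0.00069). The largest difference was that of Mrps18b, with 5.37, 2.74 and 4.15 CPM in dim and 0.947, 1.24 and 1.09 in bright libraries (-1.91 ± 0.43, edgeR adjusted p = 0.0039). Both paralogs that stay in the small subunit, Mrps18b and Mrps18c, were thus lower in bright AS cells, while Mrps18a was at 0.52 ± 0.27 with overlapping groups (edgeR adjusted p = 0.13). The value for Mrps18c was -1.0 ± 0.35 (edgeR adjusted p = 0.034), with 4.81, 4.06 and 3.51 CPM in dim and 2.04, 2.22 and 1.97 in bright libraries. Mrps18c did not pass with the mouse as a block, with DESeq2 or with the edgeR version 3 fit.
Mrpl19 had 25.0, 31.8 and 48.8 CPM in AS dim and 18.9, 6.79 and 9.17 in AS bright libraries (-1.61 ± 0.39, edgeR adjusted p = 0.0056). Mrpl52, a large-subunit protein particular to mitochondria, had 27.9, 23.6 and 28.3 CPM in dim and 13.0, 13.1 and 14.9 in bright libraries (-0.97 ± 0.22, edgeR adjusted p = 0.0037). Mrpl21, the counterpart of bacterial L21, had 35.6, 37.1 and 44.6 CPM in dim and 22.5, 19.4 and 24.9 in bright libraries (-0.82 ± 0.21, edgeR adjusted p = 0.0068). In all 3, no AS bright library reached the lowest AS dim library.
The remaining members that passed had log2 fold changes of -0.67 (Mrps21), -0.76 (Mrpl43), -0.78 (Mrps10), -0.86 (Mrpl32), 0.91 (Mrps6), 1.02 (Mrps33), 1.02 (Mrpl49) and 1.14 (Mrpl34). Exon overlap with another gene makes some of these uncertain: 30.5% of Mrps18b and 33.4% of Mrpl43 on the opposite strand, and 23.2% of Mrps18c and 19.9% of Mrps6 on the same strand. Of the stalk genes, Mrpl12 had 2.12, 2.49 and 1.44 CPM in AS dim and 4.59, 3.72 and 2.98 in AS bright libraries, apart but not past the threshold (0.89 ± 0.39, edgeR adjusted p = 0.076).

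WT and AS comparisons of bright with dim cells share no library. All 18 members that passed in AS had the same sign in WT (10 of 10 lower and 8 of 8 higher), although Mrps18c was at -0.00 there, and Mrpl19 alone passed in both. Over all genes that passed in AS and were tested in WT, 6821 of 7543 (90.4%) had the same sign, so agreement in sign was general. In WT, Mrpl17 had 45.8, 21.04 and 35.3 CPM in dim and 41.2, 34.8 and 84.5 in bright libraries (0.71 ± 0.42, edgeR adjusted p = 0.26), and Mrps15 had 56.8, 69.0 and 32.7 in dim and 51.0, 21.9 and 21.4 in bright libraries (-0.69 ± 0.44, edgeR adjusted p = 0.29). The spread within WT was wider: the median SE of a member's log2 fold change was 0.44 in WT and 0.29 in AS. With the mouse as a block the count in AS was 16, with Mrpl34 and Mrps18c lost. DESeq2 called 15 of the 18, without Mrpl34, Mrps18c and Mrps33. With the leukocyte marker level as a covariate, which nearly coincides with the subpopulation, 0 members and 0 of 14052 genes passed. With the tubule marker level as a covariate 18 passed, with Mrps33 lost and Mrps11 gained. The count was 10 without both libraries of AS mouse 2, 9 without AS bright replicate 1 and 11 without AS bright replicate 3. Over all genes those fits called 7120, 6651 and 6686, the mouse block 7755 and DESeq2 7417, against 7743 with all libraries and no block.

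**Figure D5:**
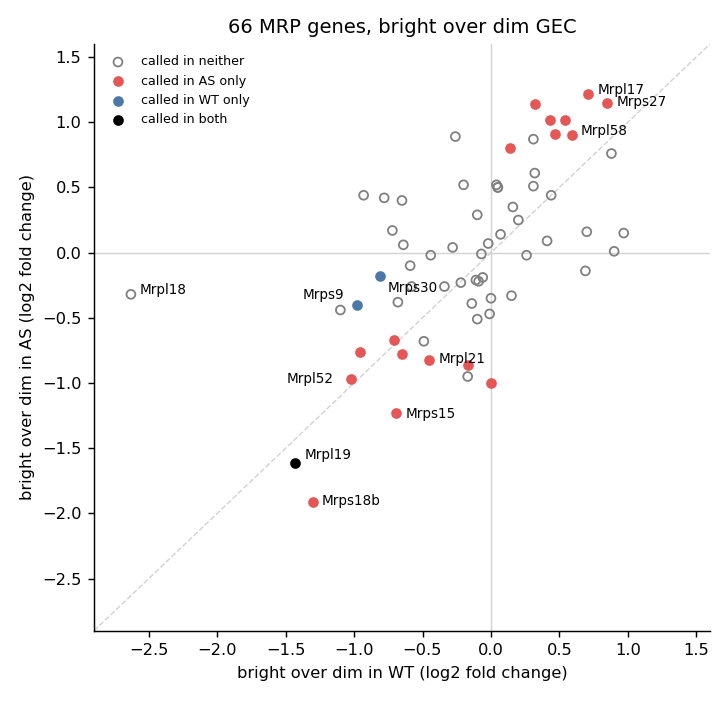
Log2 fold change of bright over dim cells for the 66 MRP genes in WT (x axis) and AS (y axis), with the genes that passed in AS, in WT or in both marked. The 18 genes that passed in AS lie on the same side of 0 in WT, except that Mrps18c sits at -0.00, and Mrpl19 passed in both.

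Other parts of the mitochondrial translation system were counted with the same fits, and their counts stand beside the shares of all genes given above: 6.42% lower and 2.21% higher for AS over WT in dim cells, 11.5% and 13.8% for bright over dim cells in WT, and 26.5% and 28.6% in AS. Among 26 assembly factors of the mitochondrial ribosome, 0 passed between AS and WT in dim or bright cells by edgeR. Between bright and dim cells, 3 of 26 were lower and 0 higher in WT, and 5 of 25 lower and 3 higher in AS. The lowest adjusted p in AS belonged to Mrm1, which methylates the large ribosomal RNA, with 78, 104 and 96.4 CPM in dim and 29.8, 25.6 and 40.5 in bright libraries (-1.55 ± 0.22, edgeR adjusted p = 0.00021), and to Nsun4, a methyltransferase of the small ribosomal RNA (-1.30 ± 0.20, edgeR adjusted p = 0.00031).
Among the translation factors 0 of 13 passed between AS and WT in dim and 0 of 14 in bright cells, and 0 of 14 between bright and dim cells in WT. In AS, 4 of 14 were higher in bright cells and 0 lower, the same share higher as the 28.6% of all genes. Mrrf, which recycles the ribosome after termination, had 5.65, 5.14 and 8.38 CPM in AS dim and 35.6, 27.3 and 27.5 in AS bright libraries (2.23 ± 0.28, edgeR adjusted p = 7.8e-05), and the others were the release factor gene Mtrf1 (3.22 ± 0.67) and the elongation factor genes Tsfm (1.08 ± 0.40) and Gfm1 (0.64 ± 0.17).
Of 20 aminoacyl-tRNA synthetase and amidotransferase genes 0 passed between AS and WT in either subpopulation, 1 was lower in bright WT cells (Lars2), and 2 were lower and 3 higher in bright AS cells. Lars2 had 2550, 2320 and 2080 CPM in WT dim and 1450, 1320 and 945 in WT bright libraries. It made up most of the list's sum of 2790, 2520 and 2310 CPM in WT dim. The RNA mt-Rnr2, described below, was lower in bright WT cells as well, and a link between them was not tested. Of the 5 ribosomal proteins with other names, Ptcd3 was lower in bright AS cells (-0.66 ± 0.24, edgeR adjusted p = 0.04). Chchd1 lay just outside the threshold in dim cells, with 37.9, 69.5 and 43.5 CPM in WT and 26.8, 20.1 and 23.1 in AS (-1.14 ± 0.30, edgeR adjusted p = 0.053).
Of 12 genes for mitochondrial DNA replication and transcription, 0 passed between AS and WT in either subpopulation, 2 were higher in bright WT cells, and 3 were lower and 1 higher in bright AS cells. Of 10 biogenesis regulators, 1 fell and 1 rose in AS dim cells and 1 rose in AS bright cells, and 1, Myc, was lower in bright than in dim WT cells. In bright AS cells 3 were lower than in dim cells, among them Nrf1, the factor whose core was searched above, with 55.2, 53.9 and 46.4 CPM in dim and 24.4, 19.8 and 24.8 in bright libraries (-1.18 ± 0.20, edgeR adjusted p = 0.00058), and Esrra, an orphan nuclear receptor of mitochondrial biogenesis, was higher (0.66 ± 0.23, edgeR adjusted p = 0.032).

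The RNAs that the mitochondrial ribosome translates or is built on were counted last. Of the mRNAs encoded in mitochondrial DNA, 6 of 12 fell in AS dim cells and 12 of 12 were lower in bright than in dim WT cells (6.42% and 11.5% of all genes), while 0 of 10 passed between AS and WT in bright cells or between bright and dim AS cells. Their sum was 27900, 19800 and 18700 CPM in WT dim and 4210, 12000 and 3990 in AS dim libraries, and 8890, 3920 and 4870 in WT bright and 3140, 5850 and 3000 in AS bright libraries. AS replicate 2 was the highest of its group in both subpopulations, and so was its tubule marker level. Between AS and WT in dim cells, 0 of all genes passed without AS dim replicate 1. Without AS dim replicate 3, or with the tubule marker covariate, 1 did. At most 1 of the 6 mRNAs that fell therefore passed in those fits.
The larger mitochondrial ribosomal RNA, mt-Rnr2, was chosen for description after its values were seen. It had 113000, 95600 and 77300 CPM in WT dim, 31000, 69100 and 46300 in AS dim, 42600, 23700 and 20600 in WT bright and 47500, 49700 and 27900 in AS bright libraries. It was lower in bright than in dim WT cells (-1.66 ± 0.43, edgeR adjusted p = 0.02), and the comparison of AS with WT in dim cells did not pass (-1.0 ± 0.31, edgeR adjusted p = 0.08). These are levels in poly-A selected libraries.

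Other large groups are set beside the MRP genes here without a test of the difference. In dim cells 18 of 64 nuclear oxidative phosphorylation genes fell in AS (6.42% of all genes did), with a median of -0.96, and 1 of 63 cytosolic ribosomal protein genes passed (higher, as did 2.21% of all genes), with a median of 0.02. The MRP median of -0.52 lay between them. Of all genes, 0 passed between AS and WT in dim cells without AS dim replicate 1, 1 without AS dim replicate 3 and 1 with the tubule marker covariate. At most 1 of the 18 therefore passed in those fits. The tubule marker sum was also lower in AS dim libraries, and its part was not tested beyond that covariate fit. Between bright and dim cells the cytosolic ribosomal protein genes were lower in 41 of 64 in WT and in 48 of 63 in AS, against 11.5% and 26.5% of all genes, with medians of -0.996 and -0.840 and 1 gene higher in each, whereas the MRP medians were -0.10 and 0.00. Of 65 oxidative phosphorylation genes, 1 was lower in bright WT cells, and 10 were lower and 9 higher in bright AS cells, where 26.5% and 28.6% of all genes were. In bright cells 0 of 65 oxidative phosphorylation and 0 of 63 cytosolic ribosomal protein genes passed between AS and WT by edgeR.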

How the data were processed

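Libraries were made with a stranded poly-A kit and sequenced as 150 bp read pairs. Per the labels and methods, the authors trimmed reads, aligned them with STAR 2.6.0c to GRCm38.p5 with Gencode M16 and counted them per gene. The deposited values used here are these raw counts per gene. The deposited RPKM values were not used, nor were the columns of the authors' own edgeR comparison of AS with WT: log2 fold change and log2 CPM, likelihood ratio score, p-values and FDR. The dim and bright tables were joined on genes listed in both. Genes missing from either were left out of the bright over dim and interaction fits, and so of their shares of all genes.

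Genes passing filterByExpr were tested with edgeR 4.0.16 (TMM, quasi-likelihood test, two-sided, Benjamini-Hochberg adjustment over all genes, threshold 0.05), each comparison on its own 6 libraries and the interaction on all 12. CPM were computed on TMM library sizes over all 12 libraries, so that dim and bright values share 1 scale. R was 4.3.3 and DESeq2 1.42.0. The fits were run on simulated counts with the same dispersion for every gene. This checks the code and does not show what the fits can detect in these data. Alternatives were other scalings, DESeq2, a likelihood ratio test, no filter, a replicate block, marker covariates and leaving out libraries. ERCC spike-ins took 0.029 to 0.28% of counts and were left out.

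Members and gene lists were chosen with earlier results of these data known. Named members are those with a textbook role, the 3 highest and 3 lowest levels per kilobase and, per comparison, up to 6 calls with the lowest adjusted p and no overlap plus up to 3 in the rarer direction, or the 3 lowest p where none passed. Members outside this rule are named to complete a count of calls or for lying just outside the threshold, and Mrpl18 for its fold change, after its values were seen. Bright and dim libraries of the same mouse are paired by the labels: deviations from the group means correlated at 0.26, 0.21 and 0.099 in WT and 0.079, 0.39 and 0.18 in AS. Counting error is small for most members, and the spread between the 3 mice limits precision.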

Additional observations from a re-analysis of the deposited data

How the results depend on the processing

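In dim cells the count of 3 MRP genes that passed between AS and WT became 7 with DESeq2, 1 without a filter on low counts, 1 with the edgeR version 3 fit (added after seeing the data), and 0 with the replicate block or with either marker level as a covariate. It ranged from 0 to 6 when 1 library was left out. Over all genes DESeq2 called 2213, the fit without a filter 964, the version 3 fit 582 and the replicate block 494, against 1263. The tubule covariate fit called 1 and the leukocyte covariate fit 0. In bright cells the count of 0 became 4 with DESeq2 and 1 with the likelihood ratio test, and ranged from 0 to 2 with 1 library left out. Between bright and dim WT cells the count of 3 became 6 with DESeq2, 0 with the proximal tubule or the leukocyte marker level as a covariate and 0 without both libraries of WT mouse 1 (added after seeing the data), with a range of 0 to 2 when 1 library was left out. With the mouse as a block it was 4. Over all genes the block called 4444 and the leukocyte covariate fit 0, against 3604 in the main fit. Between bright and dim AS cells the count of 18 became 0 with the leukocyte covariate and 10 without both libraries of AS mouse 2 (added after seeing the data), with a range of 9 to 16 when 1 library was left out. The interaction count was 0 to 1 in those fits. AS and WT mice share only replicate numbers: deviations of same-numbered libraries correlated at -0.11, -0.082 and 0.047 in dim and -0.079, -0.15 and 0.12 in bright cells, and not every library correlated best with its own number. The replicate block changed no other count by over 1.5 times. The leukocyte marker level nearly coincides with the subpopulation, and in that fit 5 of the values followed across settings (3 named members in WT and 8 in AS) changed sign: Mrpl19 at 6.51 in WT, and Mrpl17 at -0.49, Mrps15 at 2.93, Mrps18b at 0.63 and Mrps27 at -2.06 in AS. The cause of these changes was not tested. Including all 77 matching names gave counts of 4, 0, 4, 21 and 0 in the 5 comparisons. The 3 mice per group limit what can be detected, as do low counts in members such as Mrps34.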
